A study of Mus musculus with 7 samples.

Results

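The genes described here are 10 immediate early transcription factor genes of the AP-1 and EGR families, Fos, Fosb, Fosl2, Jun, Junb, Jund, Atf3, Egr1, Egr2 and Egr3. They were chosen by name from 40743 genes of the expression table. The filter on low values, a CPM (reads scaled to a common library total) of 1 or more in 3 or more libraries, left 17496 genes for testing and kept 8 of the 10, leaving out Fosb and Egr3. All values come from RNA sequencing of retinal microglia (rMG) of mice with the genotype Irf8-/- Cx3cr1GFP/+ on a C57BL/6J background, described as adult for the unlasered group, the cells being sorted as CD45low, CD11b+ and GFP+ without Ly6C or Ly6G. Every library thus shares the loss of Irf8, a transcription factor gene of myeloid cells, and a GFP allele in Cx3cr1. The 7 libraries labelled Irf8 KO comprise 3 unlasered and 4 lasered ones, the latter taken 7 days after a laser burn that breaks the membrane under the retina and starts choroidal neovascularisation (CNV). Each was a pool of 3 to 4 mice and 10000 cells on average. Only the central 70% of the retina was taken from lasered mice, so laser injury and retinal region cannot be told apart. The wild-type libraries were not analysed here.

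AP-1 is a dimer of basic leucine zipper proteins. FOS proteins must pair with a JUN protein to bind DNA, JUN proteins can also pair with each other, and ATF3 is a related partner that often represses. EGR proteins are zinc finger factors with a GC-rich binding site. As immediate early genes, most of these are silent or low at rest and are transcribed within minutes of a stimulus, without new protein synthesis, by factors already present in the cell such as SRF with its ETS partners and CREB. Many of them are also known to be induced in microglia while tissue is being dissociated and sorted.

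Some of the sequences that show such inputs lie just upstream of the transcription starts. RefSeq promoter windows of 300 bases (GRCm38.p6, 250 before the start and 50 after it) were found for 8 members, 12 windows in all, and none for Egr1 and Egr3. Both strands were searched for 5 motifs. The CArG box bound by SRF (CC, then 6 bases A or T, then GG) stood in 1.63% of all 32851 windows. Among the 8 members with a window it stood in those of Egr2 alone. Sites more than 250 bases before the start, and any site of Egr1 or Egr3, were not searched. A window without the box thus does not show that the gene lacks one. The short form of the cAMP response element, TGACG, a CREB and ATF site, was present in 20.8% of all windows and in those of Atf3, Egr2, Fos, Fosb and Junb. TGACNTCA, which covers the full cAMP response element and the related site of Jun, stood in 8.83% of all windows and in that of Jun. It overlaps TGACG where N is G. The AP-1 site TGANTCA (7.81% of all windows) was in no member window, and the EGR site GCGNGGGCG (5.55%) was in those of Fosb and Fosl2. The 150 bases before the start are shown for Egr2, the only member that passed the test below, for Fos, which varied widely between libraries, and for Jun, the most abundant member. Capitals mark the CArG box, TGACG, in the form CGTCA where it lies on the other strand, and TGACNTCA. The letters are a description of these windows and show no binding.
Egr2, chr10:67537719-67537868, + strand: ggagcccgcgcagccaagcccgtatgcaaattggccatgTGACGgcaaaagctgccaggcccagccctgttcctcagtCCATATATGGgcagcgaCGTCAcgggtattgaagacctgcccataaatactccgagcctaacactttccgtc
Fos, chr12:85473740-85473889, + strand: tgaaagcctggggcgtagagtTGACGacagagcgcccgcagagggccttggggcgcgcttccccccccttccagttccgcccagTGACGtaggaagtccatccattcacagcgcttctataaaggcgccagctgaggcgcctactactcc
Jun, chr4:95052223-95052372, - strand: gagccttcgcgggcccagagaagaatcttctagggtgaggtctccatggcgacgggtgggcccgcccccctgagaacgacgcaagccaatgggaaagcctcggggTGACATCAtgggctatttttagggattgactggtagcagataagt
In the Egr2 window the CArG box began 72 bases before the start, between TGACG sites that began 111 and 55 bases before it. The Fos window held TGACG from 129 and 66 bases before the start, and the Jun site began 45 bases before it.

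Irf8 itself (chromosome 8 of GRCm38, 120736358 to 120756694) was read at 530, 489 and 507 CPM in unlasered libraries 1, 2 and 3. Its level was 463, 465, 475 and 582 CPM in lasered libraries 1 to 4, with a log2 fold change of -0.04 (limma, Benjamini-Hochberg adjusted p = 0.875). All Irf8 reads were listed jointly with Gm20388, a gene that spans it. A value per gene does not show whether the deleted stretch was read, so it does not check the labels. The libraries held 20427558 to 36022954 reads in the unlasered and 37133297 to 45919042 in the lasered group, and the smallest level set as detectable, 3 reads, was 0.0653 to 0.147 CPM. This floor covers counting error only. Microglia markers (10 genes) summed to 33765 to 39397 CPM in unlasered and 33060 to 40764 CPM in lasered libraries. Of these 10 genes 0 passed with limma, with 2 at an unadjusted p under 0.05, 0 with edgeR and 1, P2ry12, with DESeq2. Tmem119, a gene that separates microglia from other macrophages, ranged from 1175 to 1739 CPM, and its groups overlapped. P2ry12, a purinergic receptor gene of resting microglia, had 412 to 569 CPM in the unlasered and 244 to 404 CPM in the lasered group, without overlap (log2 fold change -0.69, limma adjusted p = 0.069). Rod photoreceptor markers (15 genes) reached 2251, 20191 and 5780 CPM together in the unlasered group and 321 to 1020 CPM in the lasered one, and 14 of the 15 were lower in lasered libraries by limma (adjusted p under 0.05). The groups thus differed in rod RNA as well as in laser injury. The part of rod RNA in the results below was not tested.

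The 10 genes spread over a wide range of levels. Divided by exonic length, mean CPM per kb over the 7 libraries was 67.3 ± 10.7 (SD) for Jun and 61.4 ± 9.09 for Junb. Atf3 followed at 11.7 ± 3.83, Jund at 10.5 ± 2.30, Fos at 7.27 ± 5.46 and Egr1 at 4.39 ± 3.00 CPM per kb. Fosl2 had 2.22 ± 0.459, Egr2 0.909 ± 0.535, Fosb 0.141 ± 0.167 and Egr3 0.0630 ± 0.0932 CPM per kb. Some neighbours in this order did not differ beyond their spread. Jun exceeded Junb in 5 of 7 libraries, Atf3 exceeded Jund in 3, Jund exceeded Fos in 5, Fos exceeded Egr1 in 6 and Fosb exceeded Egr3 in 4. The steps from Junb to Atf3, from Egr1 to Fosl2, from Fosl2 to Egr2 and from Egr2 to Fosb went the same way in all 7.

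The question asked of each gene was whether its level differed between lasered and unlasered rMG. Of 17496 genes tested with limma, 6.93% had an adjusted p under 0.05, 3.86% higher and 3.07% lower in lasered libraries. Among the 8 members tested 1 passed, Egr2, which was higher after laser injury, and 7 did not. The median log2 fold change was 0.19 over the 8 and -0.01 over all genes tested. The lasered and unlasered values did not overlap for 21.0% of all genes tested and for 2 of the 8 members, Egr2 and Jund. In bulk samples such as these, fewer cells of a type and less RNA per cell cannot be told apart.

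**Figure D1:**
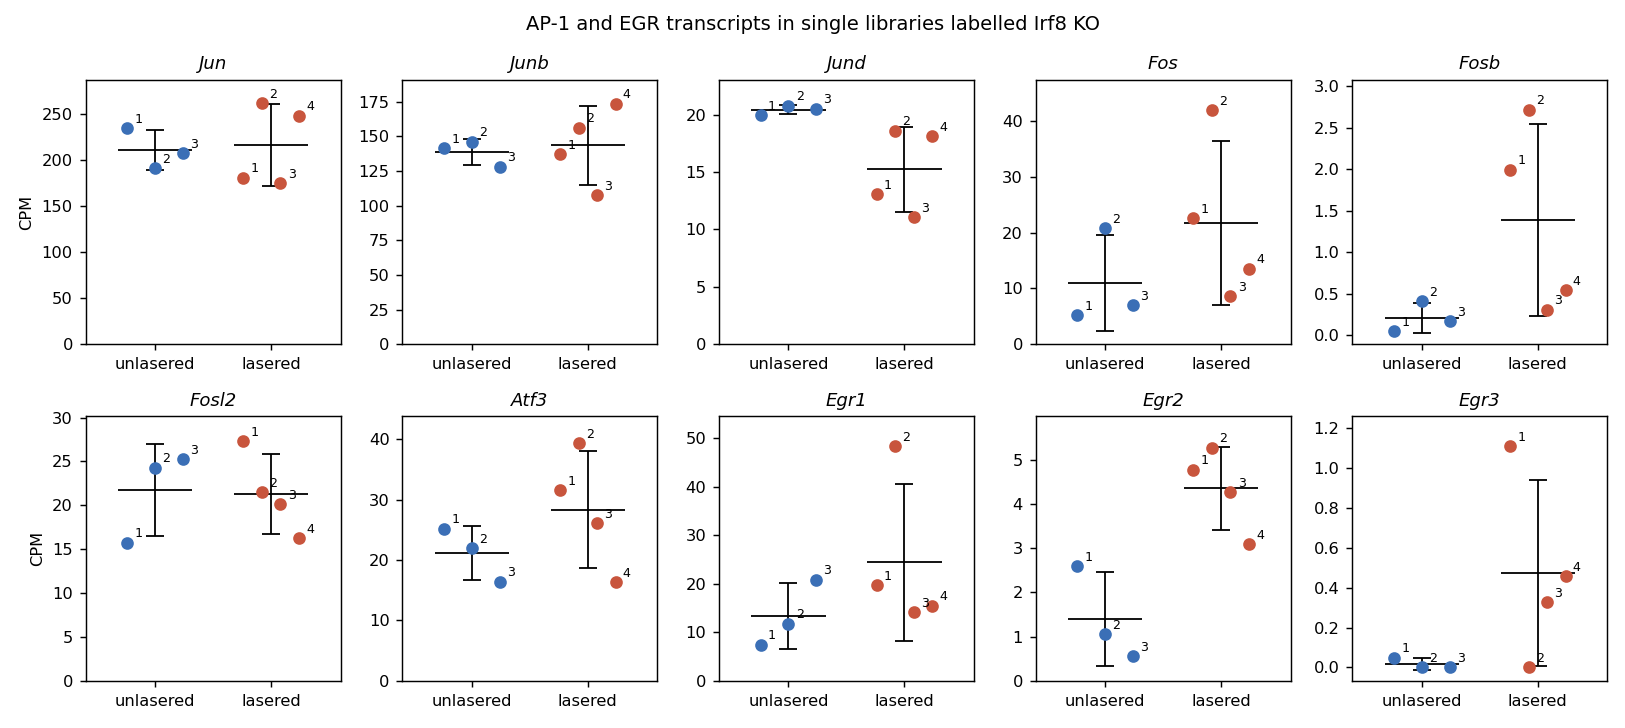
Level of each of the 10 genes in CPM (vertical axes, linear, a scale of its own for each gene) in the 3 unlasered (blue) and 4 lasered (red) libraries. Points are libraries with their numbers, horizontal lines are means and bars are SD. The 4 lasered points lie above the 3 unlasered points for Egr2 and below them for Jund. The other 8 genes overlap, with lasered library 2 highest for Fos at 41.9 CPM and for Egr1 at 48.3 CPM.

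Among the FOS genes, Fos (chromosome 12, 85473890 to 85477273), the inducible partner of the AP-1 dimer, stood at 5.19, 20.8 and 6.996 CPM in unlasered libraries 1 to 3. The lasered libraries had 22.6, 41.9, 8.65 and 13.5 CPM. Unlasered library 2 lay with the lasered ones, lasered library 3 lay with the unlasered ones, and the groups overlapped. The mean was 10.99 ± 8.54 CPM (SD, n = 3) against 21.7 ± 14.7 CPM (SD, n = 4). The log2 fold change was 0.92 ± 0.55 (SE, 95% interval -0.32 to 2.16, limma adjusted p = 0.36), and without lasered library 2 it was 0.54. A difference of this size was within the spread between libraries, which covered a factor of 8.08 from the lowest to the highest. Unlasered library 2 also had the highest rod marker sum, and the part of rod RNA in its Fos level was not tested.

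Fosb (chromosome 7, 19302696 to 19310051), a close relative with the same kind of induction, was low in most libraries. Its level was 0.0490, 0.409 and 0.167 CPM in the unlasered group, where library 1 held 1 read. In the lasered group it was 1.99, 2.72, 0.305 and 0.539 CPM. Lasered libraries 1 and 2, the same that were highest for Fos, stood above all others, while lasered library 3 lay below unlasered library 2. Fosb did not pass the filter. With no filter its log2 fold change was 0.86 (limma adjusted p = 0.29).

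Fosl2 (chromosome 5, 32135801 to 32157842), which encodes FRA2, a FOS protein without the strong activation domain of FOS, had 15.8, 24.3 and 25.2 CPM in unlasered libraries. Lasered libraries had 27.3, 21.5, 20.1 and 16.2 CPM. Here the highest and the lowest levels lay one in each group and the values interleaved. The mean was 21.8 ± 5.22 against 21.3 ± 4.60 CPM, with a log2 fold change of -0.02 (95% interval -0.53 to 0.48, limma adjusted p = 0.96).

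The JUN genes carried most of the AP-1 transcripts. Jun (chromosome 4, 95049034 to 95052222) encodes c-JUN, the main partner of FOS and a target of the kinase JNK. It had 235, 192 and 208 CPM in unlasered libraries and 181, 262, 175 and 249 CPM in lasered ones. The lasered values lay on both sides of all unlasered values. The log2 fold change was 0.02 (95% interval -0.37 to 0.41, limma adjusted p = 0.97).

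Junb (chromosome 8, 84974484 to 84978718) encodes a JUN protein that can oppose c-JUN. Its level was 142, 146 and 128 CPM in the unlasered and 137, 156, 107 and 173 CPM in the lasered group. As for Jun, lasered libraries 2 and 4 were highest and library 3 was lowest of all. The log2 fold change was 0.03 (95% interval -0.35 to 0.41, limma adjusted p = 0.94). For Jun, Junb and Fosl2 the sign of this small value changed with the library left out, and for Fosl2 also with the scaling.

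Jund (chromosome 8, 70698949 to 70700616), the JUN gene that is expressed steadily at rest and is least inducible, had 20.0, 20.8 and 20.5 CPM in the unlasered group. Its lasered values were 13.1, 18.6, 11.1 and 18.1 CPM, all below the unlasered ones. The unlasered libraries were tightly grouped and lasered libraries 1 and 3 were the lowest. The mean was 20.4 ± 0.417 against 15.2 ± 3.72 CPM, and the log2 fold change was -0.43 ± 0.20 (SE, 95% interval -0.89 to 0.03), which did not pass the test (limma adjusted p = 0.25). All 3 JUN genes have a single exon, and each shares exonic bases with a gene on the other strand. The library kit does not mark strand, so reads on these bases cannot be told apart. The share was 7.28% of the Jun exon (with Junos), 7.52% of that of Junb (with Prdx2) and 52.6% of that of Jund (with Gm11175, itself listed at 5.03 to 10.4 CPM), so that the Jund level is uncertain.

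Atf3 (chromosome 1, 191170296 to 191218039), the stress-induced repressor of the group, was read at 25.2, 22.0 and 16.4 CPM in unlasered libraries. It stood at 31.5, 39.4, 26.1 and 16.3 CPM in lasered libraries. Libraries 1, 2 and 3 of the lasered group lay above every unlasered library, and lasered library 4 lay at the unlasered minimum. The mean was 21.2 ± 4.45 against 28.3 ± 9.68 CPM, with a log2 fold change of 0.36 ± 0.28 (SE, 95% interval -0.28 to 0.99, limma adjusted p = 0.51). Without lasered library 4 it was 0.59 (adjusted p = 0.17).

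In the EGR family, Egr1, the zinc finger factor induced by growth factors and stress through SRF, had 7.49, 11.8 and 20.8 CPM in unlasered libraries. Lasered libraries had 19.7, 48.3, 14.1 and 15.5 CPM. Lasered library 2 stood far above the others, and unlasered library 3 exceeded 3 of the 4 lasered libraries. The mean was 13.4 ± 6.82 against 24.4 ± 16.1 CPM. The log2 fold change was 0.75 ± 0.44 (SE, 95% interval -0.24 to 1.75, limma adjusted p = 0.36), and it was 0.37 without lasered library 2.

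Egr2 (chromosome 10, 67535475 to 67542188), a factor known in macrophages for its part in the response to IL-4 and in myelin-forming glia, was the only member that passed the test. It was read at 2.59, 1.05 and 0.555 CPM in the unlasered and at 4.78, 5.28, 4.27 and 3.10 CPM in the lasered group. All 4 lasered libraries were higher than all 3 unlasered libraries, with a narrow gap between lasered library 4 and unlasered library 1. The mean rose from 1.40 ± 1.06 CPM (SD, n = 3) to 4.36 ± 0.935 CPM (SD, n = 4). On the log2(CPM + 1) scale, which understates the change of low genes, the log2 fold change was 1.23 ± 0.30 (SE, 95% interval 0.55 to 1.91, limma adjusted p = 0.044). This call was near the threshold. It held in 5 of 16 other ways of processing, with adjusted p from 0.015 to 0.12. The log2 fold change was positive in all 16, between 0.96 and 2.04. Since the groups did not overlap, leaving out a library could not change this sign, and changing the filter left the value at 1.23. With edgeR on the reads the adjusted p was 0.081 and with DESeq2 0.015, and with limma and no filter on low values it was 0.10. Without the lasered libraries Egr2 would have missed the filter, since unlasered library 3 was under 1 CPM. Leaving out unlasered library 1 kept the call (0.018), and leaving out any other library ended it, at 0.11 without unlasered library 2, 0.083 without unlasered library 3, 0.11, 0.12, 0.099 and 0.055 without lasered libraries 1, 2, 3 and 4.

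Egr3 (chromosome 14, 70077203 to 70082614), a relative that EGR1 can induce in other cells, held 1, 0 and 0 reads in the unlasered libraries. The lasered libraries held 49, 0, 15 and 17 reads, or 1.11, 0, 0.327 and 0.458 CPM. In lasered library 2, the highest for 6 other members, no Egr3 read was counted, which allows a level of up to 0.0668 CPM. The other 3 lasered libraries were above the floor and no unlasered library was, but the groups overlapped at 0. Egr3 did not pass the filter. With no filter its log2 fold change was 0.48 (limma adjusted p = 0.31).

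The libraries differed from each other in a way that ran across several members. Lasered library 2 was the highest of all 7 libraries for 6 of the 10 genes (Fos, Fosb, Jun, Atf3, Egr1 and Egr2). Lasered library 3 was the lowest lasered library for 6 of the 10. Averaged over the genes as z-scores, lasered libraries 2 and 1 stood at 0.93 and 0.47, lasered libraries 4 and 3 at 0.07 and -0.52, and unlasered libraries 1, 2 and 3 at -0.41, -0.14 and -0.39. One lasered library thus lay below every unlasered one in this average.

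**Figure D2:**
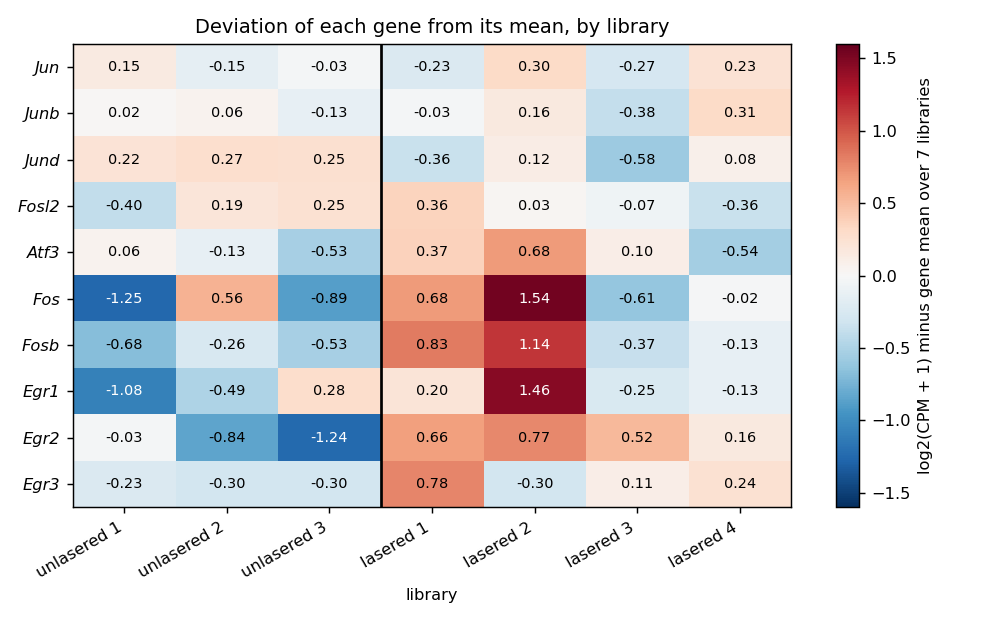
Difference of log2(CPM + 1) from the mean of the gene over 7 libraries (colour and printed value) for the 10 genes (rows) in the 3 unlasered and 4 lasered libraries (columns, divided by the black line). Lasered library 2 is at 1.54 for Fos, 1.14 for Fosb and 1.46 for Egr1, while the values of Jun and Junb stay between -0.38 and 0.31.

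Pairs of members were also compared across the 7 libraries, as a description, since the points share depth and group. Pearson r was 0.89 for Fos with Fosb, 0.80 for Fosb with Egr1, 0.72 for Fos with Egr1 and 0.76 for Jun with Junb. It was 0.18 for Fos with Jun and -0.63 for Jund with Egr2. Atf3 had an r of 0.74 with Fosb and 0.73 with Egr2, and Jund had 0.61 with Jun and 0.60 with Junb. Over these 7 libraries Fos, Fosb and Egr1 thus varied together, with lasered library 2 highest for each, and the abundant Jun and Junb varied with each other. Fos and Egr1 parted in unlasered library 2, at 20.8 and 11.8 CPM, and in unlasered library 3, at 6.996 and 20.8 CPM. Fosl2 had an r of only 0.41 with Fos. How far these values rest on lasered library 2 was not tested.

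Markers of another myeloid cell were highest in the same libraries as a sum, but not gene by gene. The 8 monocyte markers had a sum of 73.7, 22.0 and 68.3 CPM for unlasered libraries 1 to 3 and of 136, 190, 33.1 and 11.6 CPM for lasered libraries 1 to 4, so that lasered libraries 1 and 2, highest for Fos and Fosb, were highest here too. Ccr2, the chemokine receptor of inflammatory monocytes, made up most of the sum in the lasered libraries only. It had 81.5 and 128 CPM in lasered libraries 1 and 2 and 5.63 to 19.7 CPM in the other 5. In the unlasered libraries Plac8 was the largest, at 47.0, 9.78 and 45.6 CPM. Its lasered values were 27.3, 39.6, 10.6 and 3.58 CPM. Ly6c2, which the sort selects against, stayed between 0.0436 and 0.891 CPM. The difference between the groups' sums was within the spread of the libraries (exact permutation test, two-sided, p = 0.51, smallest possible 0.057). Of the 5 monocyte markers tested, 0 passed with limma, with 1 at an unadjusted p under 0.05, 0 with edgeR and 1, Ccr2, with DESeq2. Of these 5, 2 had a log2 fold change above 0 and 3 below 0, with a median of -0.07. S100a9 was at 0 in 3 libraries and Chil3 in 1. Their part in the Fos, Fosb, Atf3 and Egr1 levels was not tested.

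Markers of macrophages at the borders of nervous tissue (6 genes) summed to 1201 to 1304 CPM in unlasered and 650 to 975 CPM in lasered libraries (exact permutation test, two-sided, p = 0.057, the smallest possible). With limma and edgeR 1 of the 5 tested passed, Pf4, being lower. With DESeq2 Cbr2 passed as well, and it was higher in the lasered group (log2 fold change 1.06, limma adjusted p = 0.080). Of the 5, 2 had a log2 fold change above 0 and 3 below 0. Müller glia markers summed to 430 to 794 and 199 to 593 CPM, and endothelial markers to 16.4 to 58.4 and 13.4 to 29.2 CPM (exact permutation p = 0.11 and 0.69). Neither list held a gene that passed with limma or edgeR, and with DESeq2 1 did, Vim of the Müller glia list. Vim was higher in the lasered group (log2 fold change 1.80, limma adjusted p = 0.069). Of the 5 Müller glia markers tested, 2 had a log2 fold change above 0 and 3 below 0.

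The AP-1 pool was mostly JUN in every library. Summed per kb, the JUN genes had 139 ± 7.34 CPM per kb (SD, n = 3) in unlasered and 139 ± 27.6 (SD, n = 4) in lasered libraries. The FOS genes had 6.96 ± 3.96 and 11.6 ± 6.60, and the EGR genes 3.40 ± 1.25 and 6.83 ± 3.74 CPM per kb. The ratio of JUN to FOS was 38.3, 11.9 and 23.7 in unlasered and 9.73, 7.86, 18.7 and 21.8 in lasered libraries, with overlapping groups. Within the FOS genes Fos made up 53.0% to 87.0%, highest in lasered library 2, and Fosl2 10.8% to 46.5%. Jun made up 44.2% to 51.0% and Junb 41.8% to 47.9% of the JUN genes. Egr1 made up 68.3% to 96.6% of the EGR genes, with Egr2 between 3.39% and 31.2%.

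**Figure D3:**
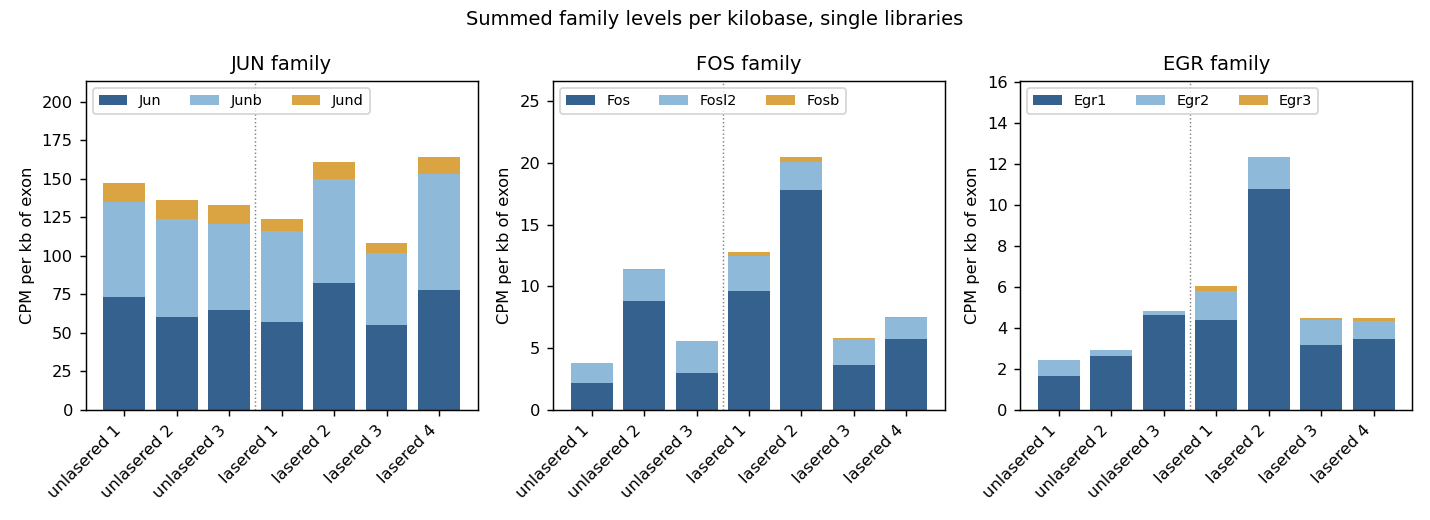
Summed level of the JUN, FOS and EGR genes in CPM per kb of exon (vertical axes, starting at 0, each panel on its own scale) for the 3 unlasered and 4 lasered libraries. Colours are the 3 genes of each family. JUN sums lie between 108 and 164, FOS sums between 3.84 and 20.5 and EGR sums between 2.45 and 12.3 CPM per kb, with lasered library 2 highest for FOS and EGR.

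Other genes of the same families showed no call. Of 10 further members and partners, 7 were tested and 0 passed with limma, edgeR or DESeq2, with 0 at an unadjusted p under 0.05 in limma, and their median log2 fold change was 0.23. Over all genes tested 6.93% passed with limma. The groups did not overlap for 2 of the 7, beside 21.0% of all genes tested. Batf, an AP-1 partner of interferon regulatory factors, had 16.1, 14.3 and 20.0 CPM against 20.7, 22.5, 22.8 and 20.8 CPM, without overlap (log2 fold change 0.36, limma adjusted p = 0.22). Nab2, a corepressor that EGR proteins induce and that limits them, had 11.6 to 12.9 CPM against 9.54 to 13.7 CPM (log2 fold change -0.08, limma adjusted p = 0.83). Egr4 was at 0 in all 7 libraries. Batf and Nab2 were chosen after their values were seen.

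Of 32 other immediate early genes, 28 were tested, 3 rose and 3 fell, and 22 did not pass, with a median log2 fold change of -0.10. The share called was 21.4%, beside 6.93% of all genes tested. The groups did not overlap for 11 of the 28, beside 21.0% of all genes tested. The list as a whole was not tested. Nr4a1, an orphan nuclear receptor gene induced with Fos and Egr1 in most cells, fell by 2.10 ± 0.41 (SE) on the log2 scale (limma adjusted p = 0.023). Its level was 41.9, 37.4 and 96.4 CPM in unlasered and 17.2, 18.7, 7.40 and 7.59 CPM in lasered libraries. All lasered libraries were below all unlasered ones, while for Fos and Egr1 the lasered mean was the higher one and did not pass. Leaving out lasered library 3 ended the call of Nr4a1 (adjusted p = 0.062). The call also ended with no filter on low values.

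Ier3, a stress-induced gene that protects from cell death, fell by 1.13 ± 0.24 (limma adjusted p = 0.028), from 71.2, 109 and 73.0 CPM to 38.1, 28.9, 32.5 and 54.1 CPM. Dusp5, a phosphatase that inactivates ERK in the nucleus, fell by 1.00 ± 0.24 (limma adjusted p = 0.043), from 24.6, 20.3 and 26.1 CPM to 15.8, 13.6, 9.50 and 7.73 CPM. Neither gene overlapped between groups. The call of Ier3 was lost without unlasered library 2 or lasered library 1, 2 or 3, and that of Dusp5 without any library but lasered library 1. Both were also lost with no filter on low values.

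Socs3, the feedback inhibitor of STAT3 signalling, rose by 1.01 ± 0.18 on the log2 scale (limma adjusted p = 0.016), from 68.4, 59.9 and 92.3 CPM to 164, 166, 126 and 134 CPM. Gadd45b, a stress gene that activates MAP kinase signalling, rose by 1.47 ± 0.28 (limma adjusted p = 0.022), from 1.27, 0.818 and 1.89 CPM to 6.86, 7.68, 3.90 and 3.80 CPM. Maff, a small MAF protein gene, rose by 1.11 ± 0.26 (limma adjusted p = 0.037), from 1.32, 0.438 and 0.472 CPM to 2.72, 3.94, 2.40 and 1.94 CPM. In each the 4 lasered libraries lay above the 3 unlasered ones. The Socs3 call was lost without lasered library 2, that of Gadd45b without unlasered library 2 or lasered library 1 or 2, and that of Maff without unlasered library 2 or 3 or lasered library 1, 2 or 3. Neither Gadd45b nor Maff reached 1 CPM in all 3 unlasered libraries, so both passed the filter through the lasered ones. With no filter on low values the Socs3 call held and those of Gadd45b and Maff were lost.

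**Figure D4:**
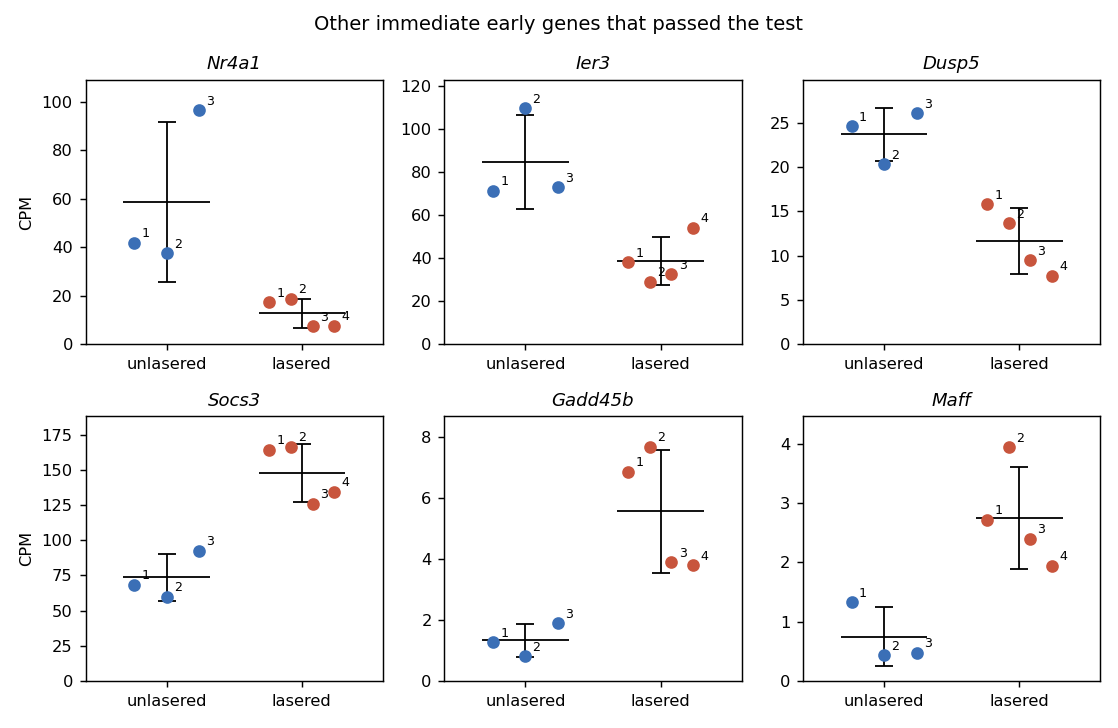
Level in CPM (vertical axes, linear, starting at 0, each gene on its own scale) of the 6 other immediate early genes that passed the test, in the 3 unlasered (blue) and 4 lasered (red) libraries. Points are numbered libraries, lines are means and bars are SD. Nr4a1, Ier3 and Dusp5 are lower and Socs3, Gadd45b and Maff are higher in all 4 lasered libraries than in any unlasered one.

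Of 18 kinases and factors that lie upstream, all 18 were tested, 3 rose and 0 fell, with a median log2 fold change of 0.20. The share called was 16.7%, beside 6.93% of all genes tested. The groups did not overlap for 4 of the 18, beside 21.0% of all genes tested. This list was not tested as a whole either. Mkl2, a coactivator of SRF, rose by 0.66 ± 0.15 (limma adjusted p = 0.037), from 12.3, 13.2 and 12.3 CPM to 22.7, 21.3, 20.3 and 17.8 CPM. Rps6ka3, the kinase RSK2 that acts on CREB and SRF, rose by 0.62 ± 0.15 (limma adjusted p = 0.040), from 26.8, 22.6 and 25.2 CPM to 43.1, 42.2, 36.4 and 34.0 CPM. Mapk3, which encodes the kinase ERK1, rose by 0.45 ± 0.12 (limma adjusted p = 0.0497), from 108, 121 and 99.4 CPM to 155, 147, 151 and 145 CPM. None of the 3 overlapped between groups. The calls of Rps6ka3 and Mapk3 were lost without any 1 of the 7 libraries, and that of Mkl2 without any but lasered library 4. With edgeR on the reads Mapk3 did not pass (adjusted p = 0.056). With no filter on low values none of the 3 calls held.

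**Figure D5:**
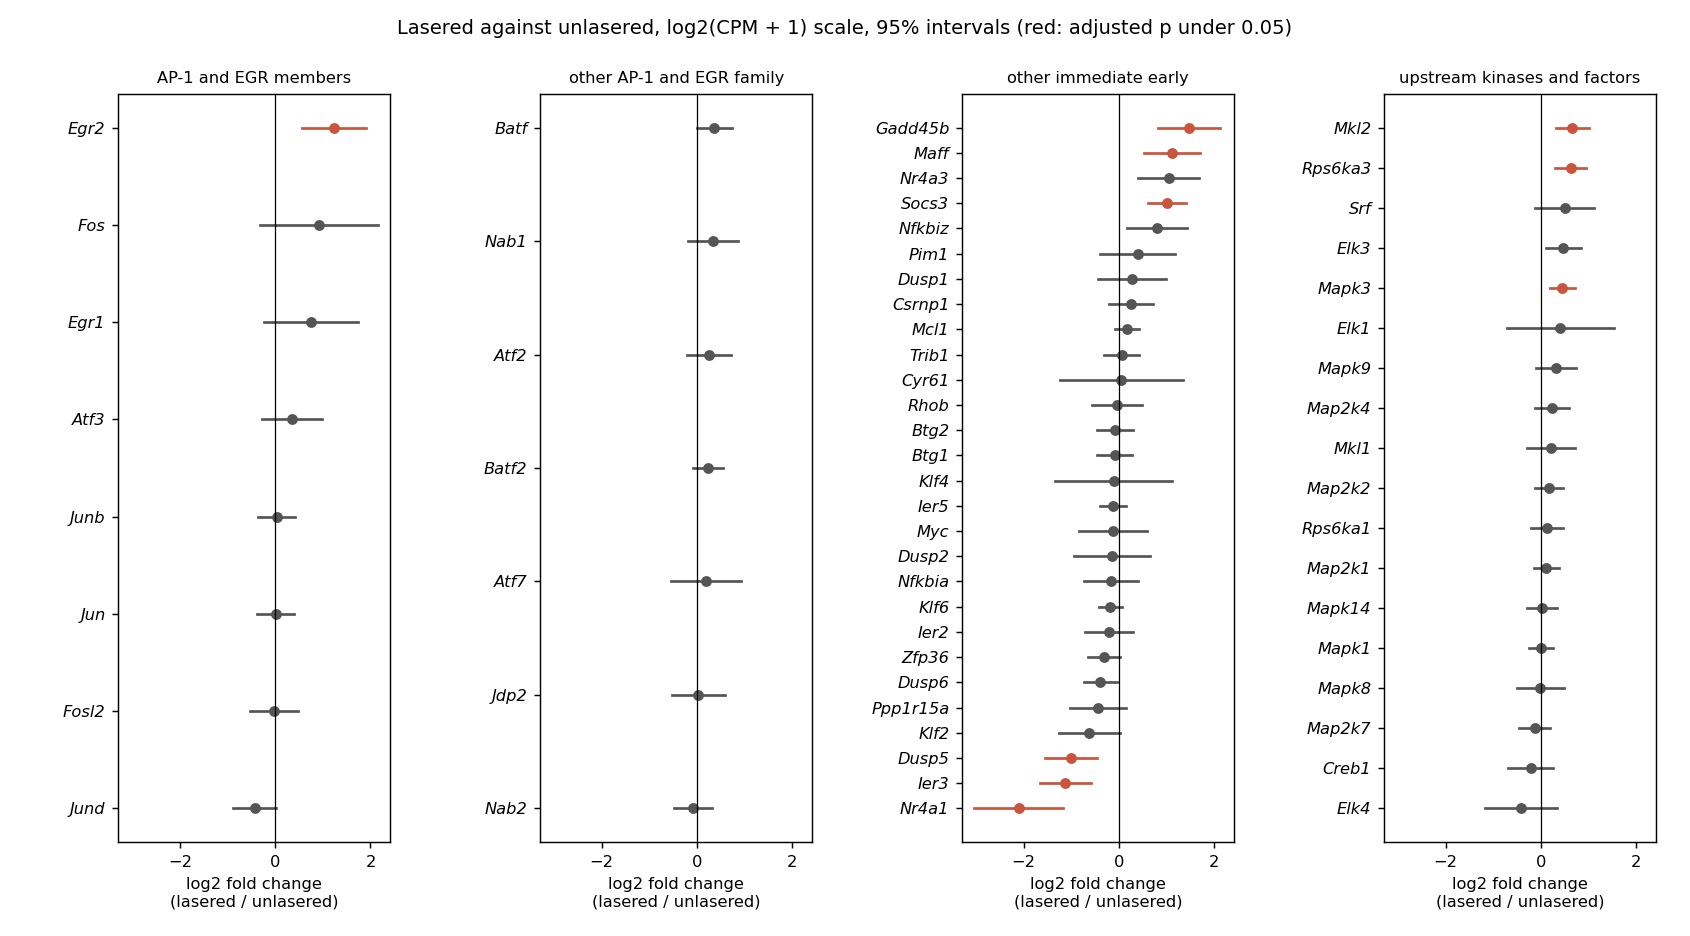
Log2 fold change of lasered over unlasered libraries on the log2(CPM + 1) scale (horizontal axes) with 95% intervals, for the 8 members tested and the tested genes of the other 3 lists. Red marks an adjusted p under 0.05. Egr2 is the only red member at 1.23, and Nr4a1 at -2.10 and Gadd45b at 1.47 are the extremes among the other genes.

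Among 10281 tested genes with a mean of at least 10 CPM that are no members, those most like the average pattern of the 10 genes over the 7 libraries were AC158239.2 (Pearson r = 0.98), Znrf1 (0.97), Terf2 (0.96), 1700037H04Rik (0.95) and Pqlc3 (0.95). Znrf1, for example, had 27.1, 28.4 and 25.5 CPM in unlasered and 36.4, 37.3, 26.2 and 31.3 CPM in lasered libraries. These are the highest of many values over few libraries and are given as a description. None of the 5 passed the test between groups (limma adjusted p from 0.20 to 0.76).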

How the data were processed

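The members, gene lists and tests were chosen with earlier results of these data known. The authors removed adapters and duplicate reads (cutadapt, FastUniq), mapped with Bowtie2 and counted per gene of annotation version 90 with HTSeq. The submitters' processing notes name GRCm38; tool versions were not given in the sources used here. The deposited values are headed TPM but are CPM, since each library's values are whole multiples of 1 step whatever the gene length (99.9965% or more of the values whole within 0.1 read), so whole reads were recovered. No member had reads listed jointly with another gene. Coordinates and exonic lengths came from GENCODE M21 (GRCm38).

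From the deposited CPM, log2(CPM + 1) of genes reaching 1 CPM in 3 or more libraries was fitted with limma 3.58.1 (R 4.3.3, mean-variance trend, robust), lasered against unlasered, two-sided, with Benjamini-Hochberg adjustment and calls at 0.05. Marker sums were compared with exact permutation tests in Python 3.11.15 with scipy 1.17.1. The test was tested on simulated data. The labels name no separate animals or batches, so p-values measure the spread between these pools. Libraries 1, 2 and 3 share numbers across groups, but same-numbered libraries did not deviate together. Named were all members, Irf8, genes of the 3 other lists with an adjusted p under 0.05 (at most 6 a list), and the 5 genes most like the member pattern. Monocyte, microglia, border macrophage and Müller glia markers named singly were chosen after their values were seen. Alternatives were a pseudocount of 0.1, no filter, a mean of at least 10 reads, a replicate block, each library left out, edgeR 4.0.16, DESeq2 1.42.0 and limma voom on recovered reads, median-of-ratios scaling and thinning to 20427558 reads. For marker sums, scaling and leaving out libraries were chosen after seeing the data.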

Additional observations from a re-analysis of the deposited data

Results flagged for a closer look

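Of 25 levels examined in the 4 lasered libraries for a single library far from the others, 2 stood out; chance alone flags about 1 in 20 such groups. Egr1 was at 48.3 CPM in lasered library 2, while the other 3 lasered libraries lay between 14.1 and 19.7 CPM. Irf8 was at 582 CPM in lasered library 4, while the other 3 lay between 463 and 475 CPM.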

How the results depend on the processing

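With 3 against 4 libraries, calls depended on single libraries. Over all genes 1213 were called, 2318 with DESeq2, 385 with no filter on low values, and 264 to 1248 with 1 library left out. Of the members 1 was called (Egr2), and 0 with a pseudocount of 0.1, with no filter, with a mean of at least 10 reads and with edgeR, and 0 to 1 with 1 library left out. Of the other listed genes 9 were called, 1 with no filter, and 1 to 7 with 1 library left out. Numbers shared across groups do not pair the samples (correlations of deviations -0.18, -0.13 and -0.02). With the replicate number as a block, 3 genes, 0 members and 0 other listed genes were called. Number 4 occurs in the lasered group only, so the block takes lasered library 4 out of the comparison. Under the block the log2 fold change of Egr2 was 1.35 and those of Fosl2, Jun and Junb changed sign to 0.0915, -0.0561 and -0.0687. These are the same values as without lasered library 4.

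Fosl2 also changed sign under median-of-ratios scaling (0.0538), as did Irf8 (0.0412), and scaling moved the median of all genes to 0.06. With 1 library left out, Fosl2 ranged from -0.231 to 0.0918, Jun from -0.0810 to 0.111 and Junb from -0.0687 to 0.160. The signs of Fos, Jund, Atf3, Egr1 and Egr2 were the same in all 16 alternatives. Changing the filter cannot change a sign, nor can leaving out a library for Jund and Egr2, whose groups did not overlap. The ratio of lasered to unlasered marker sums crossed 1 for microglia (1.06 under scaling, 0.951 to 1.05 with 1 library left out) and for endothelial markers (0.572 to 1.20 with 1 left out). Egr3 was at or under the floor of 3 reads in 4 of the 7 libraries and Fosb in 1. Neither passed the filter, and depth limits what can be said of their low values.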
